A study of Rattus norvegicus with 24 samples.

Results

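The genes described here are 9 members of the insulin-like growth factor (IGF) system: the ligand gene Igf2, the receptor genes Igf1r and Igf2r, and 6 genes of IGF binding proteins, Igfbp2, Igfbp3, Igfbp4, Igfbp5, Igfbp6 and Igfbp7. They were chosen by name, and each name matched exactly 1 locus of the 42334 listed, of which 26641 carry a gene name. The samples were cortex next to the lesion (perilesional cortex) and thalamus on the injured side (ipsilateral thalamus) from adult male Sprague-Dawley rats, collected 3 months after surgery, with 1 messenger RNA library per rat and region (24 libraries from 12 rats). The TBI animals (n = 6) had a craniectomy over the left parietal lobe followed by a lateral fluid-percussion injury, in which a fluid pulse is delivered onto the intact dura. The sham-operated controls (n = 6) had the same anesthesia and surgery but no impact. The injured rats were selected because magnetic resonance imaging had shown an inflammatory rim around their cortical lesion, so they stand for that outcome and not for all injured rats. Both tissues were dissected from 1 coronal slice of each brain, and each library held all cell types of the piece.

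IGF2, like its relative IGF1, signals mainly through the IGF1 receptor, a tyrosine kinase encoded by Igf1r, whereas the receptor encoded by Igf2r takes up IGF2 for breakdown and also carries lysosomal enzymes. The binding proteins are secreted, hold most of the IGF outside the cell, and either keep it from the receptor or deliver it, often after a protease has cut them. In the adult brain Igf2 is known as a gene of the choroid plexus, the leptomeninges and the vessel walls more than of neurons, and Igfbp2 is also known in these barrier tissues and in astrocytes.

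Levels are given as normalized counts, meaning the fragments of a locus after each library was scaled by its own size factor. A difference between groups was called when the adjusted p of limma on log2(normalized count + 1) was under 0.05, after Benjamini-Hochberg adjustment over every named locus whose normalized count averaged 10 or more in the libraries compared. Fold changes are on that log2 scale. Levels of different genes are not compared, since the files give no transcript lengths. The libraries held 30568928 to 54608919 fragments. The dissections followed their labels: the summed level of 8 cortex identity genes was 62730 to 75763 in the cortex libraries and 8929 to 21006 in the thalamus libraries, and that of 8 thalamus identity genes was 3417 to 4555 and 58763 to 88418, respectively.

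In 6 libraries the level of 12 choroid plexus markers, summed, stood apart. It was 34606 in the cortex of TBI rat 45, 25123 and 12037 in the cortex of sham rats 26 and 34, 277969 in the thalamus of TBI rat 45, and 71963 and 113522 in the thalamus of sham rats 34 and 50. In the other libraries it was 789 to 3264. No marker with a locus was at 0 in all libraries of any group. Comparisons of groups that rest on these libraries are also given without these 6 libraries. This step was chosen after seeing the data and leaves 5 TBI and 4 sham libraries in each region.

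The sequences of the 3 binding protein genes on which the results mainly turn are shown first, because Igfbp5 rose, Igfbp2 rose and Igfbp4 fell in the injured cortex and the first pair lie next to each other. The 250 bases before each start site come from RefSeq on build GRCr8, 5′ to 3′ on the strand of the gene, at chr9:81864561-81864810 on the plus strand for Igfbp2, chr9:81914188-81914437 on the minus strand for Igfbp5 and chr10:84491221-84491470 on the plus strand for Igfbp4. Capitals mark matches on either strand to the TATA box, searched as TATAAA, the GC box, searched as GGGCGG, or the CCAAT box, searched by these letters, and no matches overlap here.
Igfbp2: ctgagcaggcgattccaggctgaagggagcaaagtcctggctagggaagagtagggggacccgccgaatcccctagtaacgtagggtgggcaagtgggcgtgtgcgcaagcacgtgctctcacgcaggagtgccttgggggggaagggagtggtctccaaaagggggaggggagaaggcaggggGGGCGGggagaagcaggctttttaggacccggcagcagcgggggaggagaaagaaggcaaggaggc
Igfbp5: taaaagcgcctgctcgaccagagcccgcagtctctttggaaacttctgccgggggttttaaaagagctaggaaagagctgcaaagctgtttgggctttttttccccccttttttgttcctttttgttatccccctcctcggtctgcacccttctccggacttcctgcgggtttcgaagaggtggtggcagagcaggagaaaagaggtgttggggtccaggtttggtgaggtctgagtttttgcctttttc
Igfbp4: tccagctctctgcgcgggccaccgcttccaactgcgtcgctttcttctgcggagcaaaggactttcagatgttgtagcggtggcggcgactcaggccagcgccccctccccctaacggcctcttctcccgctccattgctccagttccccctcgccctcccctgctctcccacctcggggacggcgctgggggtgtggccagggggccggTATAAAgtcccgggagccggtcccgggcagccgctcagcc
The Igfbp2 window held a GC box whose first base lay 66 bases before the start, and the Igfbp4 window a TATA box 40 bases before it. The Igfbp5 window held none of the 3 motifs. Its share of G and C was 51.6%, compared with 64.0% for Igfbp2 and 68.8% for Igfbp4, and the median over all 33469 windows of that length was 51.2%. Of all windows, 12.9% held the TATA box, 30.5% the GC box and 34% the CCAAT box. The windows of all 9 genes (10 windows, as Igf2 has a pair) were found, and the GC box occurred in those of Igf2, Igf1r, Igf2r, Igfbp2 and Igfbp7. In the deposited positions the loci of Igfbp2 (chromosome 9, 79888613 to 79915191) and Igfbp5 (chromosome 9, 79920612 to 79937408) were 5421 bases apart and did not overlap.

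**Figure D1:**
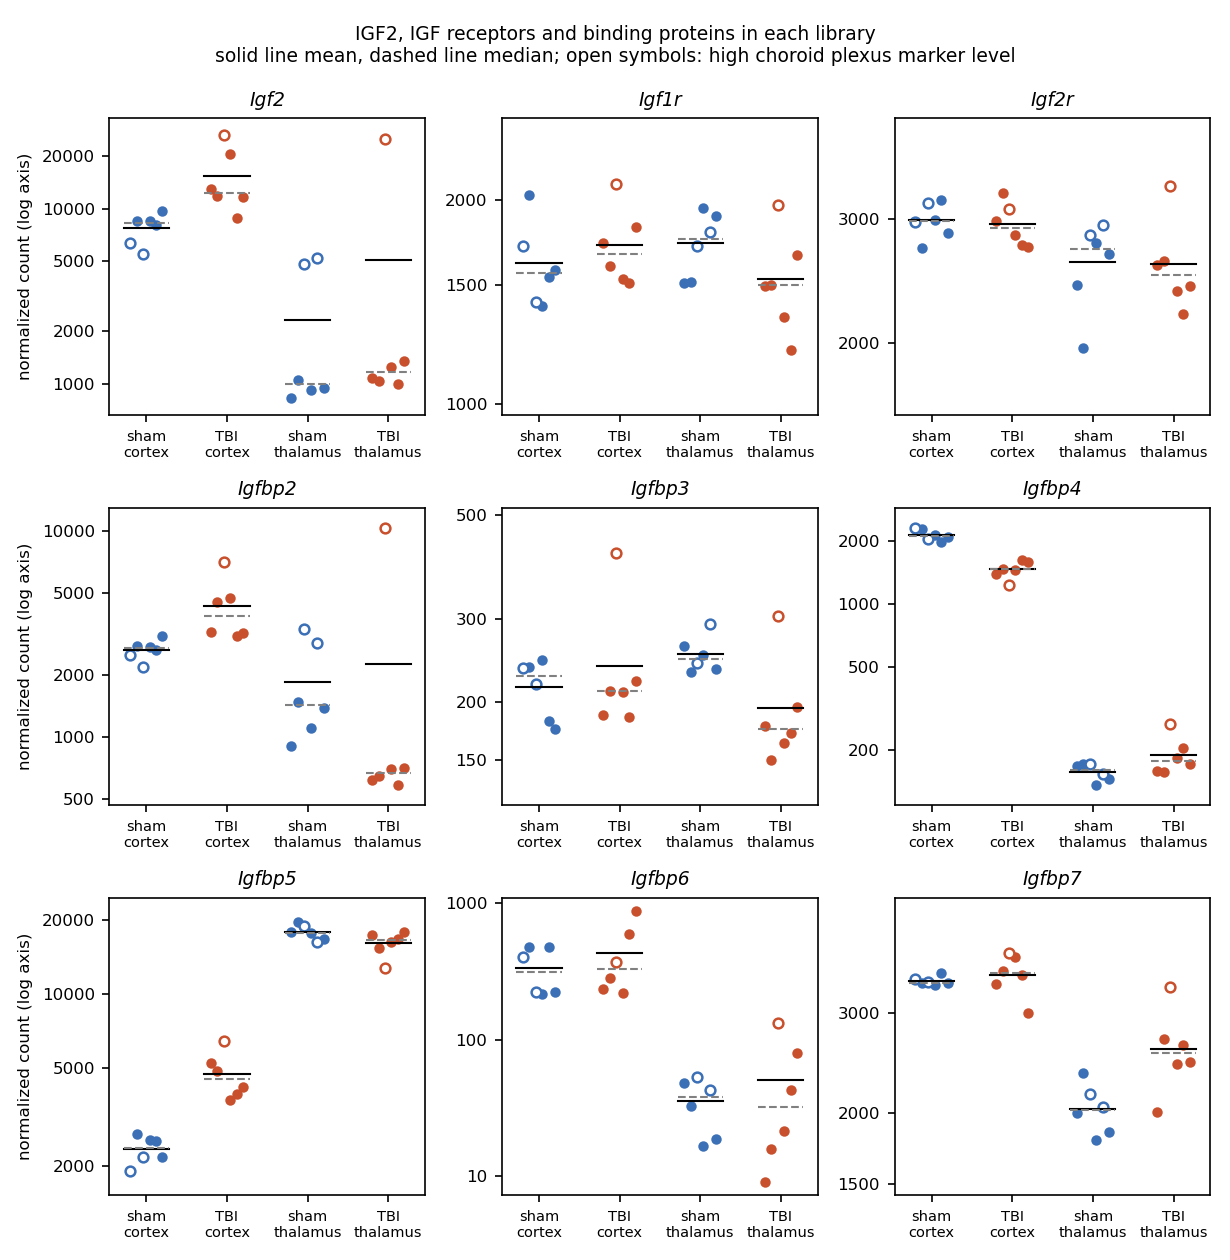
Normalized counts (log axis) of the 9 genes in each of the 24 libraries, 6 per group; solid lines are group means, dashed lines medians, and open symbols the 6 libraries high in choroid plexus markers. Igfbp4 in the cortex separates TBI (1238 to 1626) from sham (1971 to 2298), and the highest Igf2 and Igfbp2 values of the thalamus are open symbols.

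The first comparison asked which of these genes differed between TBI animals and controls in the perilesional cortex. Igfbp5, Igf2 and Igfbp2 were higher after TBI, Igfbp4 was lower, and Igf1r, Igf2r, Igfbp3, Igfbp6 and Igfbp7 did not pass the threshold. Over all 15493 loci tested, 14.3% were called higher and 14.9% lower, so 3 higher and 1 lower of 9 stand beside those shares. The groups did not overlap for 3 of the 9 genes, and for 12.5% of all loci. The median log2 fold change of the 9 genes was 0.10 (all loci -0.01). Tissue pieces hold many cell types, and in such bulk samples a change in the number of cells that make a transcript cannot be told apart from a change in the amount per cell.

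Igf2 (locus XLOC_004825, chromosome 1, 222722921 to 222732988) encodes the ligand IGF2 and is an imprinted gene. In the sham cortex its normalized count was 5495 at the lowest, 8269 at the median and 9752 at the highest, and in the TBI cortex 8867, 12365 and 26313. Of the 6 TBI libraries 5 were above every sham library, and rats 45 (26313) and 52 (20384) were the highest. The means were 15331 ± 6626 (SD, n = 6) after TBI and 7775 ± 1562 (SD, n = 6) in controls, a log2 fold change of 0.90 ± 0.22 (SE) with an adjusted p of 0.00682 by limma. Without the libraries high in choroid plexus markers the change was 0.54 and the call was lost (adjusted p = 0.0593, limma), with means of 13135 and 8698. In 1 fit over all 24 libraries, which shares the spread with the thalamus, it was also lost (adjusted p = 0.278, limma).

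The markers of meningeal and perivascular fibroblasts moved with Igf2 in the cortex. Of 13 such markers 11 were higher after TBI and none was lower, and their summed level was 16170 to 20577 in the sham cortex and 21023 to 45124 in the TBI cortex, with no overlap. TBI rat 45 was the highest for the markers and for Igf2, and rat 56 the lowest for both (21023 and 8867). Of the 13 markers 5 were called higher without the libraries high in choroid plexus markers, beside 7.9% of all loci in that fit. Sham rats 26 and 34, high in choroid plexus markers in the cortex, had the lowest Igf2 values of their group there (6362 and 5495). They were also the lowest of their group for the fibroblast markers (16180 and 16170). TBI rat 45 was the highest of its group for the choroid plexus markers, the fibroblast markers and Igf2. Leaving out the libraries high in choroid plexus markers therefore also removed these extremes of the fibroblast markers. None of the 12 choroid plexus markers was called in the cortex. The part of the fibroblast markers in the Igf2 result was not tested.

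Igfbp2 (locus XLOC_039591) encodes a binding protein with a preference for IGF2. Its normalized count was 2181 at the lowest, 2693 at the median and 3073 at the highest in the sham cortex, and 3089, 3866 and 7057 in the TBI cortex. The groups did not overlap, and rat 45 was again the highest. The log2 fold change was 0.64 ± 0.17 (SE, adjusted p = 0.0107, limma), from means of 4292 ± 1529 and 2650 ± 299 (SD, n = 6 each). Without the libraries high in choroid plexus markers it was 0.39 and not called (adjusted p = 0.0586, limma), although the groups still did not overlap, nor was it called in 1 fit over all 24 libraries (adjusted p = 0.349, limma). Of 9 astrocyte markers 4 were higher and 2 lower in the cortex with all libraries, beside 14.3% and 14.9% of all loci. Their part in the Igfbp2 result was not tested here.

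Igfbp5 (locus XLOC_040438) encodes a binding protein that associates with the extracellular matrix, and it had the largest fold change of the 9 genes in the cortex. Its normalized count was 1910 at the lowest, 2367 at the median and 2713 at the highest in controls, and 3732, 4534 and 6451 in TBI animals. All 6 TBI libraries were above all sham libraries, and the mean went from 2349 ± 305 to 4736 ± 1019 (SD, n = 6 each). The log2 fold change was 1.00 ± 0.12 (SE, adjusted p = 5.14e-05, limma). It was 0.81 without the libraries high in choroid plexus markers (adjusted p = 0.000631, limma), where the groups did not overlap either.

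Igfbp4 (locus XLOC_006634, chromosome 10, 86747475 to 86759486) encodes a binding protein that mostly restrains IGF action until it is cut by PAPPA. It was the 1 gene of the 9 that fell in the cortex. Normalized counts in the sham cortex were 1971 at the lowest, 2106 at the median and 2298 at the highest, and in the TBI cortex 1238, 1464 and 1626. The groups did not overlap, and the lowest TBI value was that of rat 45. The means were 1461 ± 140 after TBI and 2134.5 ± 129 in controls (SD, n = 6 each), and the log2 fold change was -0.55 ± 0.07 (SE, adjusted p = 4.61e-05, limma).

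Igfbp4 had a log2 fold change of -0.49 without the libraries high in choroid plexus markers (adjusted p = 0.001, limma). Neuronal markers fell in the same tissue: 11 of 14 were lower after TBI and none was higher, and their summed level was 363211 to 457275 in the TBI cortex and 487564 to 523498 in the sham cortex. In the thalamus 12 of the 14 were lower, while Igfbp4 had a log2 fold change of 0.25 there and was not called (adjusted p = 0.147, limma). The part of the neuronal markers in the Igfbp4 result was not tested.

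The receptor genes differed little in the cortex. Igf1r (locus XLOC_001222, chromosome 1, 129985803 to 130272589) had 1393 to 2033 normalized counts in controls and 1510 to 2110 in TBI animals, with a log2 fold change of 0.09 (95% interval -0.12 to 0.30, adjusted p = 0.507, limma). Igf2r (locus XLOC_002950, chromosome 1, 51488768 to 51577141) had 2732 to 3197 and 2742 to 3269, with a log2 fold change of -0.02 (95% interval -0.14 to 0.10, adjusted p = 0.817, limma). For both receptors the groups overlapped almost wholly.

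Among the other binding proteins, Igfbp7 (locus XLOC_012295, chromosome 14, 32788023 to 32901277), a secreted protein of vessels with a low affinity for IGFs, had a narrow range in the sham cortex (3360 to 3537) and a wider one after TBI (3007 to 3832). Its log2 fold change was 0.03 (95% interval -0.09 to 0.15, adjusted p = 0.701, limma). Igfbp3 (locus XLOC_013309, chromosome 14, 81091986 to 81099928) encodes the main IGF carrier of the blood. Its values were 175 to 245 in controls and 186 to 221 in 5 TBI animals, with 414 in rat 45. Igfbp6 (locus XLOC_035311, chromosome 7, 141546159 to 141551065), which encodes a binding protein with a strong preference for IGF2, spread widely in both groups, from 218 to 484 and from 220 to 882, and its log2 fold change of 0.25 had a 95% interval of -0.45 to 0.95.

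**Figure D2:**
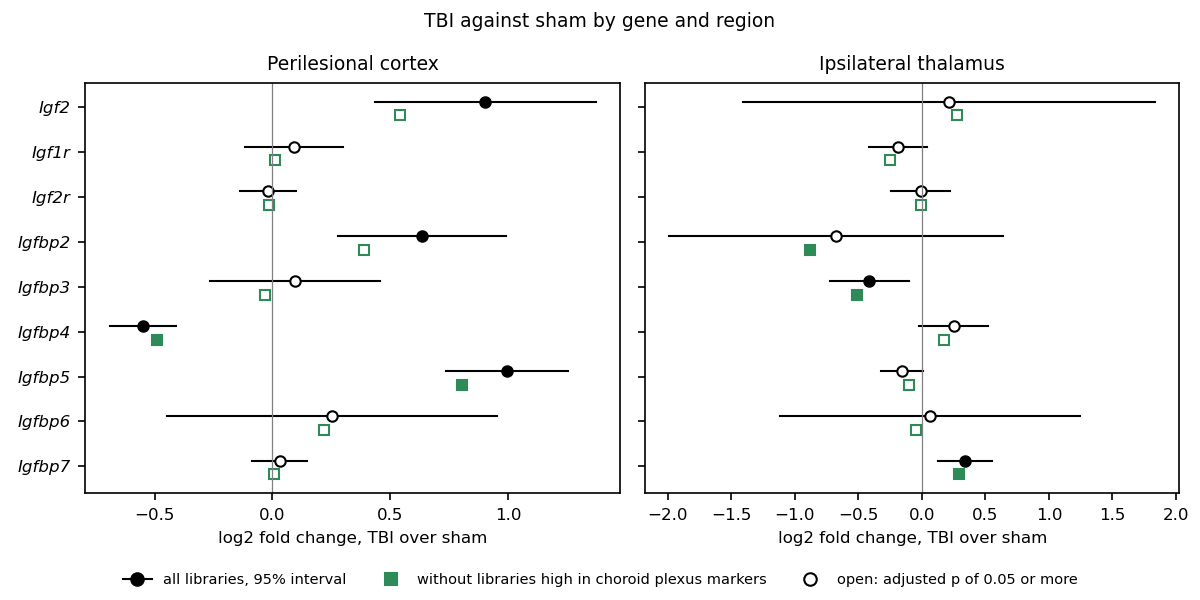
Log2 fold changes, TBI over sham, of the 9 genes in the perilesional cortex (left) and the ipsilateral thalamus (right). Black circles with 95% intervals use all libraries (6 against 6), green squares leave out the libraries high in choroid plexus markers (5 against 4), and open symbols have an adjusted p of 0.05 or more; the wide intervals of Igf2 (-1.41 to 1.84) and Igfbp2 (-1.99 to 0.64) are in the thalamus.

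The second comparison asked the same of the ipsilateral thalamus. Igfbp7 was higher and Igfbp3 lower after TBI, and the other 7 genes did not pass the threshold. Over all 15564 loci tested, 14.5% were called higher and 20.9% lower, and the groups did not overlap for 18.2% of all loci and for none of the 9 genes. Of the called loci 59.0% were lower, compared with 45.7% after TMM scaling and 47.7% after upper quartile scaling. The median log2 fold change of the 9 genes was -0.01 (all loci -0.02).

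Igfbp7 had normalized counts of 1796 at the lowest, 2028 at the median and 2359 at the highest in the sham thalamus, and 2012, 2551 and 3336 in the TBI thalamus. Of the TBI libraries 5 were above every sham library, with rat 22 the exception and rat 45 the highest. The log2 fold change was 0.34 ± 0.10 (SE, adjusted p = 0.0169, limma), from means of 2599 ± 435 and 2038 ± 205 (SD, n = 6 each). It was 0.29 without the libraries high in choroid plexus markers (adjusted p = 0.0443, limma). Markers of vessel cells were higher in the same tissue: 6 of 7 pericyte and smooth muscle markers and 5 of 10 endothelial markers rose and none fell. The summed level of the first was 13444 to 17725 in the sham and 17705 to 22682 in the TBI thalamus, and that of the second 14001 to 17657 and 16785 to 23684. Their part in the Igfbp7 result was not tested.

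Igfbp3 had normalized counts of 231 at the lowest, 246 at the median and 292 at the highest in the sham thalamus, and 150, 174 and 305 in the TBI thalamus. Of the TBI libraries 5 were below every sham library and rat 45 (305) was above them all. The log2 fold change was -0.42 ± 0.15 (SE, adjusted p = 0.0378, limma). This call was close to the threshold. It was lost on leaving out any 1 of the rats other than sham rat 32 and TBI rat 45 (10 of 12 fits, log2 fold change -0.35 to -0.44, adjusted p 0.0514 to 0.0843, limma). It was also lost with TMM scaling (-0.37, adjusted p = 0.068, limma) and upper quartile scaling (adjusted p = 0.0519, limma). Without TBI rat 45 it was -0.55 (adjusted p = 0.000499, limma). Without the libraries high in choroid plexus markers the log2 fold change was -0.51 (adjusted p = 0.00317, limma) and the groups, 172 ± 17 (SD, n = 5) and 245 ± 15 (SD, n = 4), did not overlap.

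The thalamic values of Igfbp2 depended on those libraries. In the sham thalamus its normalized count was 908 at the lowest, 1425 at the median and 3354 at the highest, and in the TBI thalamus 583, 671 and 10316. The high values were those of sham rats 34 (3354) and 50 (2849) and of TBI rat 45 (10316), which are the thalamus libraries high in choroid plexus markers. The other 5 TBI libraries (583 to 705) were below every sham library. With all libraries the TBI mean was the higher one (2261 ± 3946 against 1845 ± 1007, SD, n = 6 each), the log2 fold change was -0.67 ± 0.61 (SE), and the difference was not called (adjusted p = 0.426, limma). Without those 3 libraries the means were 650 ± 52 (SD, n = 5) and 1216 ± 257 (SD, n = 4), the log2 fold change was -0.88 ± 0.13 (SE, adjusted p = 0.000353, limma), and the groups did not overlap. Leaving out TBI rat 45 alone gave -1.34 (adjusted p = 0.0023, limma).

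In the thalamus without the 3 libraries the summed level of the choroid plexus markers was 986 to 2253 in TBI and 789 to 1500 in sham animals. Of the 12 markers 4 were called higher in the TBI animals, beside 12.0% of all loci in that fit. Of 9 astrocyte markers 5 were called higher and none lower without the 3 libraries, beside 12.0% and 15.3% of all loci. The part of the choroid plexus and astrocyte markers in the Igfbp2 result was not tested. A test on recovered fragments by the edgeR quasi-likelihood method with all libraries gave Igfbp2 a positive log2 fold change of 0.30 that was not called (adjusted p = 0.79).

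Igf2 showed the same libraries at the top. Its normalized count was 825 at the lowest, 1000 at the median and 5239 at the highest in the sham thalamus, and 994, 1166 and 25003 in the TBI thalamus. Sham rats 34 (4851) and 50 (5239) and TBI rat 45 (25003) were each several times above the rest of their group. The log2 fold change was 0.21 ± 0.76 (SE, adjusted p = 0.855, limma). Without those 3 libraries it was 0.28 ± 0.10 (SE, adjusted p = 0.0576, limma), from 1142 ± 150 (SD, n = 5) and 938 ± 92 (SD, n = 4).

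**Figure D3:**
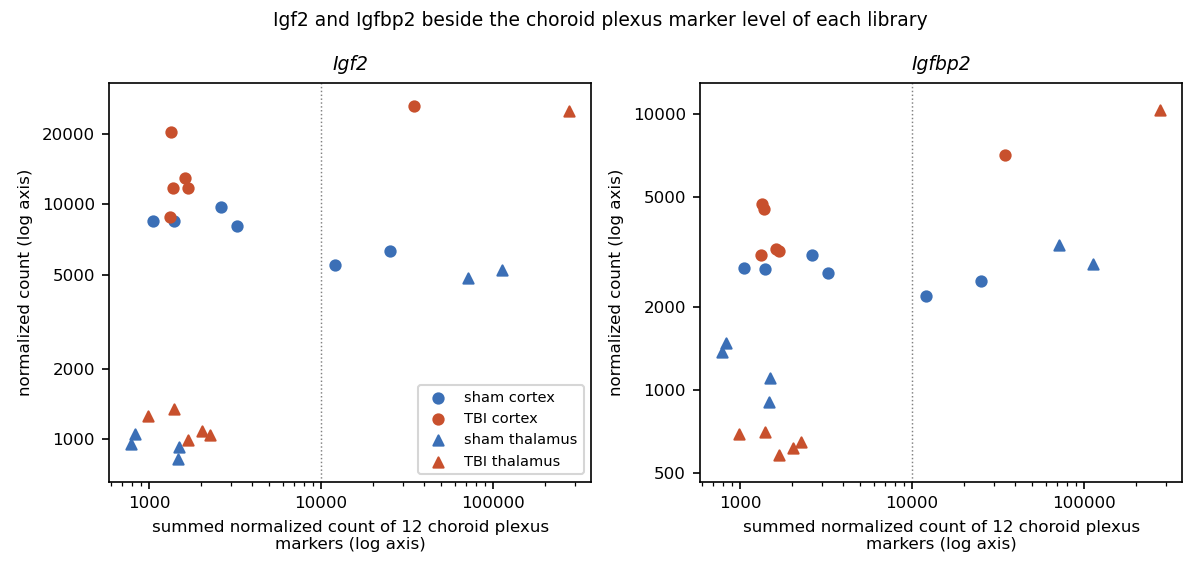
Normalized counts of Igf2 (left) and Igfbp2 (right) against the summed normalized count of 12 choroid plexus markers in each of the 24 libraries, both on log axes; circles are cortex, triangles thalamus, blue sham, orange TBI, and the dotted line marks 10000. Among the thalamus libraries the 3 to the right of the line are the 3 highest for both genes, whereas the sham cortex libraries to the right of it are the lowest of their group.

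Neither receptor gene was called in the thalamus. Igf1r was 1509 to 1946 in controls and 1204 to 1968 in TBI animals, and 4 TBI libraries were below every sham library (log2 fold change -0.19, 95% interval -0.41 to 0.04, adjusted p = 0.185, limma). Without TBI rat 45 its log2 fold change was -0.26 and passed the threshold (adjusted p = 0.0356, limma). Igf2r was 1967 to 2940 and 2194 to 3348 (log2 fold change -0.01, 95% interval -0.24 to 0.22). Igfbp5, high in this region, was 16383 to 19793 in controls and 12814 to 17966 after TBI (-0.16, 95% interval -0.32 to 0.01, adjusted p = 0.129, limma), with the lowest value in rat 45. Igfbp4 was 137 to 173 and 158 to 267 (0.25, 95% interval -0.02 to 0.52, adjusted p = 0.147, limma). Igfbp6 was low, at 16.6 to 53.8 and 9.13 to 133 normalized counts, and its log2 fold change of 0.06 had a standard error of 0.55.

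The TBI effects in cortex and thalamus were compared by an interaction term in a fit of all 24 libraries, and a difference was called for 2 of the 9 genes. For Igfbp5 the effect in the thalamus minus that in the cortex was -1.15 ± 0.15 (SE) on the log2 scale (adjusted p = 4.52e-05, limma): the gene rose in the cortex and had a negative fold change in the thalamus. For Igfbp4 it was 0.80 ± 0.14 (SE, adjusted p = 0.000979, limma), with a fall in the cortex and a positive fold change in the thalamus. Among all 15678 loci 2.72% had a positive and 4.54% a negative difference that was called. For Igfbp2 the difference was -1.31 with all libraries (adjusted p = 0.265, limma) and -1.27 without those high in choroid plexus markers (adjusted p = 0.00102, limma). For Igfbp7 (0.31, adjusted p = 0.115, limma), Igfbp3 (-0.51, adjusted p = 0.2, limma) and Igf2 (-0.69, adjusted p = 0.69, limma) it was not called. Leaving out TBI rat 45 gave calls for Igfbp2 (-1.82, adjusted p = 0.00163, limma) and Igfbp3 (-0.48, adjusted p = 0.0404, limma), and leaving out TBI rat 22 for Igfbp7 (0.37, adjusted p = 0.0417, limma).

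The thalamus and the cortex differed for most of these genes within each group of rats. In sham rats 1 of the 9 genes was higher in the thalamus and 6 were lower, beside 33.9% and 28.3% of 15582 loci. In TBI rats 1 was higher and 5 were lower, beside 31.0% and 26.5% of 15737 loci. Both libraries of a rat come from the same animal. The fits here and for the interaction treated them as independent, unless the rat as a replicate block is named. Counts of rats are therefore also given for most genes.

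Igfbp5 was higher in the thalamus in 12 of 12 rats. The thalamus level was 6.44 to 9.36 times the cortex level in each sham rat and 1.99 to 4.39 times in each TBI rat, and these ranges did not overlap. The log2 difference was 2.94 in sham (adjusted p = 5.3e-14, limma) and 1.79 in TBI rats (adjusted p = 1.21e-08, limma).

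Igfbp4 showed the reverse order and was lower in the thalamus in 12 of 12 rats. The cortex level was 11.9 to 15.6 times the thalamus level in sham rats and 4.63 to 9.31 times in TBI rats. The log2 difference, thalamus over cortex, was -3.75 (adjusted p = 2.05e-15, limma) and -2.95 (adjusted p = 3.41e-11, limma), respectively.

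Igfbp6 was also lower in the thalamus in every rat, with a log2 difference of -3.25 in sham (adjusted p = 1.91e-07, limma) and -3.44 in TBI rats (adjusted p = 0.00011, limma). Igfbp7 was lower by less, -0.75 (adjusted p = 1.59e-08, limma) and -0.44 (adjusted p = 0.00139, limma), again in 12 of 12 rats.

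**Figure D4:**
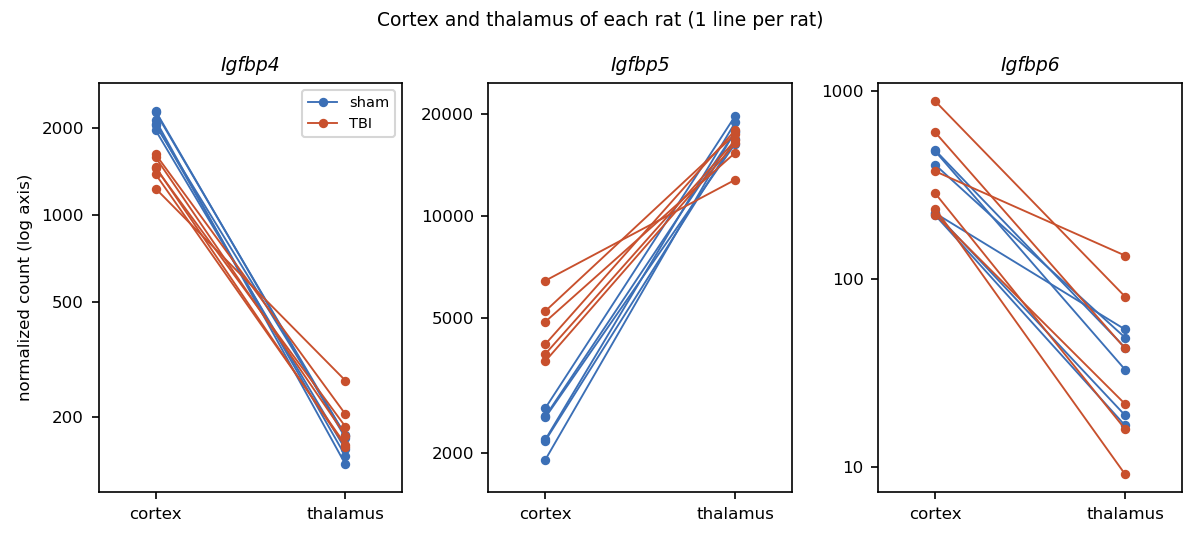
Normalized counts (log axes) of Igfbp4, Igfbp5 and Igfbp6 in the cortex and thalamus of each rat, 1 line per rat, blue sham (n = 6) and orange TBI (n = 6). All 12 lines fall from cortex to thalamus for Igfbp4 and Igfbp6 and rise for Igfbp5.

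Igf2 was lower in the thalamus than in the cortex in 12 of 12 rats, with a log2 difference of -2.22 in sham (adjusted p = 0.000346, limma) and -2.91 in TBI rats (adjusted p = 0.00164, limma). The ratio of cortex to thalamus was as low as 1.05 in TBI rat 45 and reached 16.3 in another TBI rat. Igfbp2 was lower in the thalamus in 9 of 12 rats. Its log2 difference was -0.68 in sham (adjusted p = 0.0317, limma) and -1.99 in TBI rats (adjusted p = 0.00922, limma), and the sham call was lost without rat 26, 32, 38 or 55 (adjusted p 0.0875 to 0.109, limma) and with all 24 libraries in 1 fit (adjusted p = 0.23, limma). With the libraries high in choroid plexus markers left out, the differences were -3.21 (sham, adjusted p = 1.26e-10, limma) and -3.48 (TBI, adjusted p = 5.95e-10, limma) for Igf2, and -1.23 (adjusted p = 9.14e-06, limma) and -2.50 (adjusted p = 4.89e-10, limma) for Igfbp2. By edgeR on recovered fragments with all libraries the calls of Igf2 in TBI rats (adjusted p = 0.114), of Igfbp2 in TBI rats (adjusted p = 0.285) and of Igfbp2 in sham rats (adjusted p = 0.0961) were lost.

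The other 3 genes differed less between regions. Igf2r was lower in the thalamus in 11 of 12 rats, by -0.21 in sham (adjusted p = 0.0395, limma) and -0.20 in TBI rats (adjusted p = 0.0622, limma). The sham call was lost without rat 26, 34, 38 or 55 (adjusted p 0.0541 to 0.107, limma), and the TBI difference was called without rat 45 (adjusted p = 0.00399, limma). Igfbp3 was 0.24 on the log2 scale in sham (adjusted p = 0.0557, limma) and -0.28 in TBI rats (adjusted p = 0.264, limma), and in sham rats it was called without rat 32 (adjusted p = 0.0405) or rat 38 (adjusted p = 0.0499, limma). Igf1r was 0.11 (adjusted p = 0.333, limma) and -0.17 (adjusted p = 0.195, limma), and in sham rats 0.21 without rat 32 (adjusted p = 0.0283, limma). With the rat as a replicate block, the TBI rat differences of Igf1r (adjusted p = 0.0136), Igf2r (adjusted p = 0.0181) and Igfbp3 (adjusted p = 0.0237, limma) passed the threshold. In that fit 9 of the 9 genes were called, beside 9395 of all 15737 loci.

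The order of the 4 groups by mean was clear for few genes. Igfbp4 ran from sham cortex (2134.5) to TBI cortex (1461) to TBI thalamus (191) to sham thalamus (159), and of these neighbours the last pair overlapped. Igfbp5 ran from sham thalamus (17932) to TBI thalamus (16137) to TBI cortex (4736) to sham cortex (2349), and the first pair overlapped. For Igf2, Igf1r, Igf2r and Igfbp3 the ranges of every pair of neighbours overlapped. For Igfbp2 the TBI and sham cortex were apart, and for Igfbp6 and Igfbp7 the sham cortex and TBI thalamus, and the other neighbours overlapped.

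The loci whose log2 normalized counts were most like each gene over the 24 libraries are given as a description. The points share rats, scaling and the 4 groups, and 15678 loci were searched. Igf2 was most like Fmod (Pearson's r = 0.983), which is on the fibroblast marker list, Sfrp1 (r = 0.98) and Islr (r = 0.975). Among the loci most like Igfbp2 were Bmp7 (r = 0.967) and Igf2 (r = 0.93). These stayed close after the mean of each group was subtracted, when Igf2 was most like Fmod (r = 0.972), Igfbp2 (r = 0.968) and Sfrp1 (r = 0.963), and Igfbp2 like Tbx18 (r = 0.971), Igf2 (r = 0.968) and Bmp7 (r = 0.964). All 24 libraries entered these values. In the thalamus, the libraries high in choroid plexus markers were the highest for both Igf2 and Igfbp2. The correlations were not computed without those libraries.

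Among the loci most like Igfbp4 were Pip4k2c (r = 0.992) and Ptprk (r = 0.992). Igfbp5 was most like Kcnj16 (r = 0.991), a potassium channel gene, Klhl30 (r = 0.989) and Sparc (r = 0.984). Igfbp6 was most like Flrt3 (r = 0.946), Msln (r = 0.943) and Plac9 (r = 0.94). With group means subtracted these values were lower: Igfbp4 with Sema3f (r = 0.794) and Hspa1l (r = 0.76), Igfbp5 with Pkp1 (r = 0.737), Trpm6 (r = 0.732) and Cmtm7 (r = 0.701), and Igfbp6 with Pdzrn3 (r = 0.782), Srgn (r = 0.759) and Csad (r = 0.741).

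Igfbp7 was most like Ctsk (r = 0.955), Cxcl12 (r = 0.952) and Lama4 (r = 0.947), the last a laminin chain of vessel walls, and with group means subtracted like Ctsh (r = 0.883), Lsr (r = 0.849) and the beta-globin locus Hbb (r = 0.846). Igfbp3 was most like Adipoq (r = 0.71), Gas6 (r = 0.709) and Slc26a7 (r = 0.707), and within groups like Des (r = 0.854), an immunoglobulin heavy chain locus (r = 0.85) and C7 (r = 0.84). The receptors had lower or middling values. Igf1r was most like Lhfp (r = 0.789), Zfhx4 (r = 0.749) and Nav2 (r = 0.717), and within groups Heg1 (r = 0.895), Prpf18 (r = 0.873) and Map3k5 (r = 0.841). Igf2r was most like Arhgef12 (r = 0.868), Hipk1 (r = 0.842) and Frem1 (r = 0.84), and within groups Arhgef12 (r = 0.892), Arfgef2 (r = 0.878) and Abcc1 (r = 0.865).

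The wider IGF pathway was examined on a list of 48 genes, of which 44 had a locus and 38 passed the filter on low values. In the cortex 6 were higher and 8 lower after TBI, beside 14.3% and 14.9% of all loci. In the thalamus 4 were higher and 13 lower, beside 14.5% and 20.9%, and with TMM scaling 6 were higher and 10 lower, beside 18.0% and 15.1% of loci in that fit. Without the libraries high in choroid plexus markers the counts were 4 higher and 3 lower in the cortex, beside 7.9% and 6.06% of loci in that fit, and 3 higher and 10 lower of 37 in the thalamus, beside 12.0% and 15.3%. The median log2 fold change was -0.05 in the cortex and -0.11 in the thalamus (all loci -0.01 and -0.02).

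Among the ligands, Igf1 was the 1 gene above the filter. It is named here after its values were seen. Its normalized count was 367 to 499 in the sham cortex and 398 to 754 in the TBI cortex (log2 fold change 0.39, adjusted p = 0.0414, limma), and 669 to 1308 and 1113 to 1639 in the thalamus (0.41, adjusted p = 0.0351, limma). Both calls were lost without the libraries high in choroid plexus markers, at 0.25 in the cortex (adjusted p = 0.243, limma) and 0.47 in the thalamus (adjusted p = 0.0657, limma). The ranges overlapped in both regions, and the effects did not differ between regions by the interaction test (adjusted p = 0.974, limma). Microglia, which are known to make Igf1, also stood higher: 13 of 14 microglial markers in the cortex and 14 of 14 in the thalamus rose, with summed levels of 17261 to 18314 (sham) and 24489 to 27629 (TBI) in the cortex and 18429 to 23930 and 37371 to 48120 in the thalamus. Their part in the Igf1 result was not tested. Neither of the 2 other receptor genes of the insulin family, Insr and Insrr, was called in either region.

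Of the proteases of the binding proteins and their inhibitors, 7 were tested. In the cortex 2 rose and 1 fell, beside 14.3% and 14.9% of all loci. In the thalamus 1 rose and 2 fell, beside 14.5% and 20.9%. Ctsd, which encodes the lysosomal protease cathepsin D, rose in both regions, by 0.42 in the cortex (adjusted p = 0.000247, limma) and by 0.75 in the thalamus (adjusted p = 1.92e-06, limma), and more so in the thalamus (difference 0.33, adjusted p = 0.0313, limma). Htra1, which encodes a secreted serine protease that cuts IGF binding proteins, had 6896 to 7896 normalized counts in the sham and 4758 to 6144 in the TBI cortex (log2 fold change -0.43, adjusted p = 0.00011, limma). In the thalamus it had 4231 to 5272 and 3093 to 4038 (-0.42, adjusted p = 0.00107, limma). For both proteases the groups did not overlap in either region. Pappa, whose product cuts IGFBP4, is named after its values were seen. Its name matched 2 loci, and only the locus with the higher mean is given. That locus was low, with 4.47 to 12.8 normalized counts in the sham and 12.3 to 22.7 in the TBI cortex (0.91, adjusted p = 0.0181, limma). Its call was lost without the libraries high in choroid plexus markers (adjusted p = 0.0803, limma), and it was not called in the thalamus (-0.29, adjusted p = 0.429, limma). Stc1, whose product inhibits PAPPA, was lower in the thalamus (-0.998, adjusted p = 0.00318, limma) and not called in the cortex (-0.12, adjusted p = 0.425, limma), and the effects differed (adjusted p = 0.0364, limma).

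Of the receptor substrates and adaptors, 7 were tested. In the cortex 1 was higher and 2 were lower, beside 14.3% and 14.9% of all loci. In the thalamus 1 was higher and 3 were lower, beside 14.5% and 20.9%. Without the libraries high in choroid plexus markers 1 was higher and none lower in the cortex, beside 7.9% and 6.06% of loci in that fit. In the thalamus 1 was then higher and 2 were lower, beside 12.0% and 15.3%. Shc1, an adaptor that links receptors to the RAS pathway, was 612 to 824 in the sham and 918 to 1108 in the TBI cortex (log2 fold change 0.60, adjusted p = 8.64e-05, limma), and 653 to 764 and 990 to 1335 in the thalamus (0.70, adjusted p = 1.46e-05, limma). Irs2, a substrate of the insulin and IGF1 receptors, was lower in the thalamus (-0.34, adjusted p = 0.00189, limma) and not called in the cortex (-0.09, adjusted p = 0.572, limma).

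Of the PI3K and AKT genes and their targets, 16 were tested, 1 was higher and 5 were lower in the cortex, and 1 was higher and 7 were lower in the thalamus. Among all loci the shares higher and lower were 14.3% and 14.9% for the cortex, and 14.5% and 20.9% for the thalamus. With TMM scaling 3 were higher and 6 lower in the thalamus, beside 18.0% and 15.1% of loci in that fit. Without the libraries high in choroid plexus markers 1 was higher and 2 were lower in the cortex, beside 7.9% and 6.06% of loci in that fit. In the thalamus 1 was then higher and 5 were lower, beside 12.0% and 15.3%. Neuronal markers fell in the same tissues, 11 of 14 in the cortex and 12 of 14 in the thalamus, where their summed level was 356426 to 419807 in sham and 240334 to 305799 in TBI animals. Their part in the results of the pathway genes was not tested. Pdpk1, the gene of the kinase that activates AKT, was lower in both (-0.20, adjusted p = 0.00562, and -0.26, adjusted p = 0.00491, limma). Akt1 (-0.29, adjusted p = 0.000263, limma), the mTOR inhibitor gene Tsc2 (-0.28, adjusted p = 0.00247, limma) and the PI3K regulatory subunit gene Pik3r2 (-0.27, adjusted p = 0.00288, limma) were lower in the thalamus and not called in the cortex. The interaction was called for Akt1 (adjusted p = 0.00366) and Tsc2 (adjusted p = 0.0252, limma) and not for Pik3r2 (adjusted p = 0.159, limma). With the deposited scaling 0 of the 16 genes had a positive and 2 a negative difference that was called. With upper quartile scaling these counts were 2 and 1, so the calls of Akt1 and Tsc2 did not both hold. Foxo1, a transcription factor that AKT holds out of the nucleus, was higher in both regions (0.30, adjusted p = 0.00196, and 0.35, adjusted p = 0.00184, limma), with no overlap between groups.

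Of the imprinted neighbours and partners 3 were tested. Cdkn1c, which encodes a cell cycle inhibitor and lies in the imprinted cluster of Igf2, was 175 to 207 in the sham and 204 to 495 in the TBI cortex (log2 fold change 0.70, adjusted p = 0.00421, limma). Without the libraries high in choroid plexus markers its cortex log2 fold change was 0.565 (adjusted p = 0.0237, limma). In the thalamus Cdkn1c was 85.1 to 477 and 86.8 to 1076 and not called (-0.07, adjusted p = 0.939, limma). Plagl1 was the other gene of that group to be called, lower in the thalamus (-0.38, adjusted p = 0.0409, limma), and it is named after its values were seen. That call was lost with TMM scaling (-0.33, adjusted p = 0.0779, limma) and upper quartile scaling (adjusted p = 0.0629, limma). It was kept without the libraries high in choroid plexus markers (-0.55, adjusted p = 0.00869, limma).

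**Figure D5:**
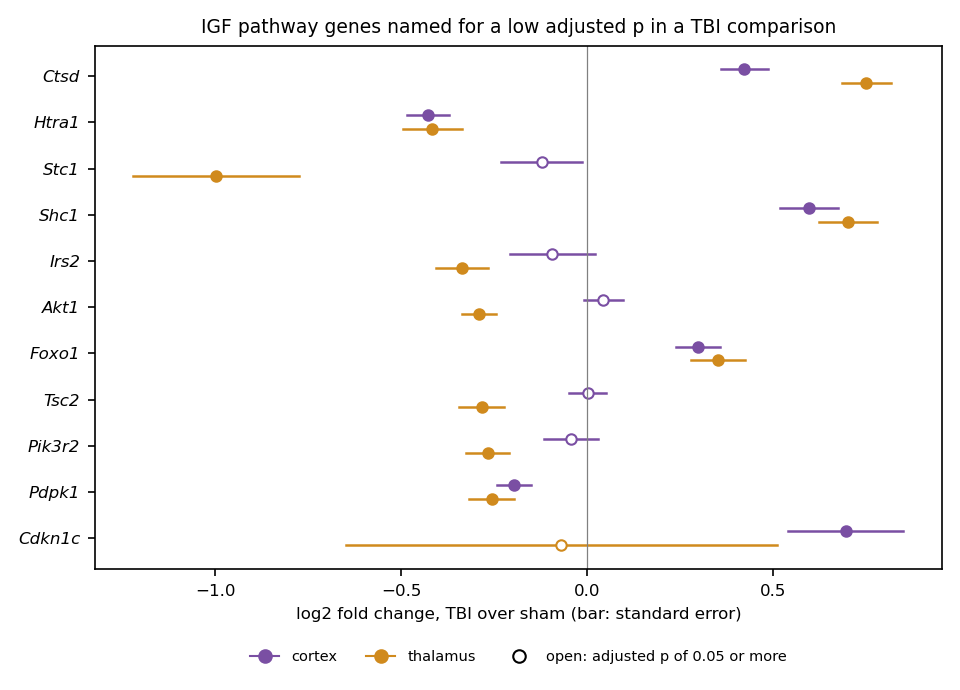
Log2 fold changes, TBI over sham, of pathway genes named for a low adjusted p in either region, with standard errors; purple cortex, orange thalamus, open symbols an adjusted p of 0.05 or more. Ctsd, Shc1 and Foxo1 are to the right of 0 in both regions, Htra1 and Pdpk1 to the left in both.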

How the data were processed

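Messenger RNA was sequenced from cortex and thalamus of 6 TBI and 6 sham-operated rats. The authors prepared stranded libraries from polyadenylated RNA. Per the submitters' processing notes they aligned reads with TopHat2 2.0.11 and Bowtie2 2.2.2 and assembled transcripts with Cufflinks 2.2.1. The notes name Rnor_5.0, and the methods name RGSC3.4 as genome with the Ensembl annotation of Rnor_5.0, so positions are printed with no build. The deposited values are a signal: the authors counted fragments per locus and scaled each library by its size factor. All low values (up to 20 steps, tolerance 0.01 steps) were whole multiples of the value of 1 fragment, which gave the depth of 30568928 to 54608919 fragments. Summed normalized counts were lower after TBI (37244965 to 39621156) than in controls (39629659 to 41732163). The 15693 loci without a gene name held 1.9% to 2.23% of a library and were left out.

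TBI was compared with sham in each region, the thalamus with the cortex in each group of rats, and the TBI effect between regions as an interaction, by limma 3.58.1 (R 4.3.3) with the variance trended on the mean, using log2(normalized count + 1) of named loci averaging 10 or more. p-values were adjusted by the Benjamini-Hochberg method over all loci tested. The steps were tested on simulated data. Alternatives tried were TMM or upper quartile scaling, other filters and pseudocounts (0.1 and 5), voom, all 24 libraries in 1 fit, the rat as block and each rat left out. An exact two-sided permutation test was added for single genes. Leaving out libraries with over 10000 summed choroid plexus counts, that level as a covariate, and edgeR 4.0.16 on recovered fragments were added after seeing the data.

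The genes, lists and comparisons were chosen with earlier results of these data known. All 9 genes are named in each comparison, of the pathway list up to 12 called genes by lowest adjusted p, and for each gene the 3 most correlated loci, overall and with group means subtracted. A few genes that these rules name are not reported here. The numbers pair the cortex and thalamus libraries of a rat because they name the animal: the deviations of the 2 libraries from their group means correlated at 0.00393 to 0.569 (median 0.187, over 0.1 in 10 of 12 rats; median between different rats -0.0332). Replicates are separate rats, and libraries of 1 group correlated at 0.968 to 0.994 on the log2 scale. Promoter sequences came from RefSeq (GRCr8). Protein sequences were not used here.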

Additional observations from a re-analysis of the deposited data

Results flagged for a closer look

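TBI rat 45 stood apart in 5 of the 36 sets of 6 libraries (9 genes in 4 groups), by a gap to the next library above the 95% critical share of the group's range (0.625). In the TBI thalamus these were Igf2 at 25003 normalized counts (gap 0.985 of the range), Igfbp2 at 10316 (0.987), Igf2r at 3348 (0.637) and Igfbp3 at 305 (0.711). In the TBI cortex it was Igfbp3 at 414 (0.844). For independent groups of normally distributed values, chance alone would mark about 1 in 20. These sets share libraries and their counts were not put on a log scale, so that rate may not hold here. The library of the thalamus of this rat had the highest choroid plexus level (277969) and, among the thalamus libraries, the highest fibroblast marker level (41289), and their part in these values was not tested.

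The TBI effect differed between the regions by the interaction test of limma for Igfbp4, 0.80 on the log2 scale (thalamus minus cortex, adjusted p = 0.000979), and for Igfbp5, -1.15 (adjusted p = 4.52e-05).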

How the results depend on the processing

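Over all alternatives the 9 genes gave 883 values with the same direction and the same side of the threshold, 20 that came to pass it, 31 that no longer did and 28 that changed sign, and the cause of these changes was not tested. These counts include the exact permutation test. It keeps the fold change by construction, and its p was not adjusted. Without the libraries high in choroid plexus markers 2162 loci were called in the cortex (4531 with all) and 422 for the difference between regions (1138 with all), with fewer samples in each fit. The count of the 9 genes called in the cortex (4) was 2 there and 2 with all 24 libraries in 1 fit. In the thalamus (2) it was 1 with TMM scaling, upper quartile scaling, no filter, all 24 libraries in 1 fit or edgeR. Leaving out 1 rat gave 1 to 4 in the thalamus, 690 to 1204 loci and 2 to 4 of the genes for the difference between regions, and both counts of genes reached 4 without TBI rat 45. The loci were 690 without TBI rat 24, 695 without sham rat 50 and 1204 without TBI rat 52.

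Changes of sign concerned differences that were not called. In the thalamus Igf2r was 0.039 with TMM scaling, 0.03 with upper quartile scaling and 0.007 with the choroid plexus level as a covariate, Igfbp2 was 0.295 by edgeR, and Igfbp6 was -0.048 without the libraries high in choroid plexus markers. In the cortex Igfbp3 was -0.033 without those libraries. For the difference between regions Igf2 was 0.173 and Igfbp6 0.159 by edgeR, and Igf2r was -0.005 with the covariate. Leaving out 1 rat gave thalamus ranges of -0.53 to 0.548 for Igf2, -0.089 to 0.034 for Igf2r and -0.324 to 0.421 for Igfbp6. The cortex ranges were -0.05 to -0.0 for Igf2r and -0.076 to 0.154 for Igfbp3, and for the difference between regions they were -0.052 to 0.036 for Igf2r and -0.581 to 0.053 for Igfbp6.

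With the rat as replicate block 1612 loci were called for the difference between regions (1138 without the block), 9810 in sham rats (9693) and 9395 in TBI rats (9048), and among the 9 genes it changed no call other than those of Igf1r, Igf2r and Igfbp3 in TBI rats. Summing over all loci of a name gives no other value for the 9 genes, since each of them has 1 locus. The depth sets a floor of 3 fragments, or 2.06 to 3.76 normalized counts, below every value of the 9 genes, and this covers counting error only.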
